A study of Mus musculus with 70 samples.

Results

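A set of 9 genes flanks Cic on mouse chromosome 7 and is described here: Pou2f2, Dedd2, Zfp526, Gsk3a and Erf on its 5′ side, and Pafah1b3, Prr19, Tmem145 and Cnfn on its 3′ side. They were chosen by position, after the versioned Ensembl identifiers of the deposited count table had been matched to gene symbols, and they make up 9 of the 50789 identifiers in that table. The question put to them was whether a change in either Cic knockout followed the distance from the targeted gene, as a local effect of the allele or transcription running past the end of Cic would. Poly(A)-selected RNA from 70 mouse tissue samples was sequenced in 9 groups: wild type (WT), Cic-S-KO and Cic-L-KO in the lung at postnatal day 6, and the same genotypes in the cortex and the cerebellum at 12 weeks. The groups held 8 samples, or 7 for Cic-S-KO in either brain region. WT samples were littermate controls described as pooled. Which WT sample belongs to which line, which exons each allele lacks, and whether the samples of a group are separate animals are not given in the sources used here, so p-values measure the spread between these samples.

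Cic encodes capicua, an HMG-box transcriptional repressor that binds DNA with its partner ATXN1 and is released from its targets when the ERK kinase is active. A long isoform (Cic-L) and a short isoform (Cic-S) start from separate promoters and share the rest of the gene, and the labels name a knockout of each. Deleting or inserting sequence in a gene can alter the genes beside it on the same chromosome, through shared regulatory elements or through RNA polymerase that reads past the usual end. Poly(A) gene counts cannot see these events directly, since reads between genes are in no row of the table.

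In GRCm38 coordinates Cic spans chr7:25267704-25294159 on the plus strand. Its closest neighbour Pafah1b3 lies at chr7:25295049-25297986 on the minus strand, so the 2 genes run toward each other and their annotated ends are 889 bases apart. Prr19 (chr7:25301411-25304132, plus) begins 7.25 kb past Cic, Tmem145 (chr7:25306106-25316195, plus) 11.9 kb past it, and Cnfn (chr7:25367620-25369724, minus) lies 73.5 kb away. On the 5′ side the gaps are 16.9 kb for Erf (chr7:25242561-25250761, minus), 29.9 kb for Gsk3a (chr7:25228258-25237851, minus) and 40.2 kb for Zfp526 (chr7:25221425-25227507, plus). Dedd2 (chr7:25199915-25220615, minus) is 47.1 kb and Pou2f2 (chr7:25087344-25179726, minus) 88 kb from Cic. All 9 are protein-coding. The counting program and its strand setting are not given in the sources used here, so reads of Pafah1b3 and of any Cic transcript reaching into it cannot be told apart, nor can those of Gsk3a and the antisense RNA 9130221H12Rik inside it.

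The RefSeq starts of Cic are 14480 bases apart, and 2 of its 15 GENCODE transcripts begin at the downstream one. The sequences before both starts are shown because the alleles are named for the isoforms that begin there, and that of Tmem145 because it is the first neighbour on the same strand past Cic that was detected well enough to test. Each is the 250 bases upstream of a start in RefSeq's GRCm38.p6 annotation, on the plus strand, with CpG dinucleotides in capitals.
Cic upstream start, chr7:25267449-25267698: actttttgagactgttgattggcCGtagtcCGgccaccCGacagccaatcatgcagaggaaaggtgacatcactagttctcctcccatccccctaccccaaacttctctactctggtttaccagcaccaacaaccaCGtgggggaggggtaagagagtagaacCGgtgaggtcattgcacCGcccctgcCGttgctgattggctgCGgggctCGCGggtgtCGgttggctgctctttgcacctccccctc
Cic downstream start, chr7:25281929-25282178: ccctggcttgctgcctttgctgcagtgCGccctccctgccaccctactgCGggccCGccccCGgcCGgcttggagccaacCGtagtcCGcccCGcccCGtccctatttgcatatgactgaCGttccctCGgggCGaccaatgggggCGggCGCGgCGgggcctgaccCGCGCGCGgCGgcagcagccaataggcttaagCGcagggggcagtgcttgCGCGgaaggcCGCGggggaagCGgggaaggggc
Tmem145 start, chr7:25305858-25306107: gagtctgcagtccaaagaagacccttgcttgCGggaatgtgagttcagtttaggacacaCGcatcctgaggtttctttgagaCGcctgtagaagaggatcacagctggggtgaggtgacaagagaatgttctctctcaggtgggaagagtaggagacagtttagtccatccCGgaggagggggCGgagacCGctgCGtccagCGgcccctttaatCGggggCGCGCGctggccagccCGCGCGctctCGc
The downstream Cic start holds 27 CpG in these 250 bases against 11 at the upstream start and 16 at Tmem145. The DNA sites of capicua were searched as TGAATGAA, TGAATGGA, TCAATGAA and TCAATGGA on both strands of RefSeq's 300-base promoters (250 bases before the start and the first bases of the transcript). None of the 10 promoters listed for Cic and the members other than Pafah1b3 held a match, against 3.84% of the 32851 promoters in the whole table. That says only that these letters are not in these windows.

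The library totals ran from 17798655 to 35523037 counts, and every gene tested was scaled by edgeR's TMM factors within its tissue to CPM, the count of a gene relative to its library's size. The tissue labels matched their markers, with 6 of 6 lung, 5 of 5 cortex and 6 of 6 cerebellum genes separating their tissue from the others. A lung library stood apart: Cic-S-KO replicate 5 held 14.6 CPM summed over 5 cortex markers, against 0.436 to 1.71 CPM in the other 23 lung libraries. Member calls in the lung that it alters are given with and without it. Y-linked RNA was above 10 CPM in 4 of 8 libraries of each group, or 3 of 7 in the Cic-S-KO brain groups.

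Cic itself is reported first, as a check of the labels. The count table adds all Cic isoforms in 1 row, so loss of an isoform need not lower it, and the row cannot verify either knockout. In the cortex the WT libraries had 150 CPM at the lowest, 161 at the median and 173 at the highest, those of Cic-S-KO 237, 250 and 260, and those of Cic-L-KO 269, 304 and 318. The ranges of the 3 cortex genotypes did not overlap. Cic was higher by 0.63 (SE 0.0379) on the log2 scale in Cic-S-KO and by 0.88 (SE 0.0369) in Cic-L-KO, with adjusted p of 1.35e-12 and 9.49e-18 (edgeR's quasi-likelihood test, Benjamini-Hochberg adjustment over all genes, as throughout). In the lung it rose by 0.31 in Cic-S-KO (adjusted p = 6.41e-05), while the Cic-L-KO difference was -0.0389 (adjusted p = 0.681). In the cerebellum the differences were 0.15 in each knockout, past the threshold of 0.05 in Cic-L-KO (adjusted p = 0.0253) and at it in Cic-S-KO (adjusted p = 0.05, from an unrounded value not below the threshold). With offsets for GC content the Cic-L-KO call was lost (adjusted p = 0.229, and 0.307 with the replicate number as a block as well).

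Pafah1b3, the neighbour across the 889-base gap, rose in Cic-L-KO in all 3 tissues. It encodes a catalytic subunit of the brain platelet-activating factor acetylhydrolase, the enzyme complex that also contains LIS1. In the cortex the WT libraries had 7.64, 8.14 and 9.69 CPM (lowest, median, highest), those of Cic-S-KO 6.82, 8.86 and 10.5, and those of Cic-L-KO 25.9, 28.2 and 31.7. All 8 Cic-L-KO libraries lay above every WT and every Cic-S-KO library, and the latter groups overlapped. The Cic-L-KO rise was 3.41-fold, or 1.77 on the log2 scale (SE 0.0731; adjusted p = 9.49e-18). In Cic-S-KO the difference was 0.0393 (95% interval -0.11 to 0.19; adjusted p = 0.818). The direct comparison of Cic-S-KO with Cic-L-KO gave -1.73 (SE 0.0761; adjusted p = 2.26e-17).

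In the cerebellum Pafah1b3 had 11, 12 and 13.5 CPM in WT, 9.32, 10.6 and 12.7 in Cic-S-KO, and 25, 28.1 and 31.8 in Cic-L-KO. Again the last group lay apart from both others. The rise was 2.37-fold, or 1.25 on the log2 scale (SE 0.0624; adjusted p = 4.63e-14). Cic-S-KO differed from WT by -0.15 (95% interval -0.28 to -0.02; adjusted p = 0.17). Cic-S-KO was lower than Cic-L-KO by -1.39 (SE 0.0658; adjusted p = 2.11e-14), the smallest p among the 16643 genes tested in that comparison.

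In the lung Pafah1b3 had 23.2, 27.1 and 29.4 CPM in WT, 27.1, 28.7 and 34.4 in Cic-S-KO, and 32.9, 35.1 and 43.2 in Cic-L-KO. All 8 libraries of the last group were above all of WT and overlapped with those of Cic-S-KO. Their rise was smaller here, 0.44 on the log2 scale (SE 0.065; adjusted p = 0.000113). In Cic-S-KO the difference of 0.16 (95% interval 0.04 to 0.29) had an adjusted p of 0.0844, and Cic-S-KO was below Cic-L-KO by -0.28 (adjusted p = 0.00504). By p-value Pafah1b3 ranked 4 of 16974 tested genes in the cortex, 2 of 16643 in the cerebellum and 36 of 16695 in the lung for Cic-L-KO against WT.

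**Figure D1:**
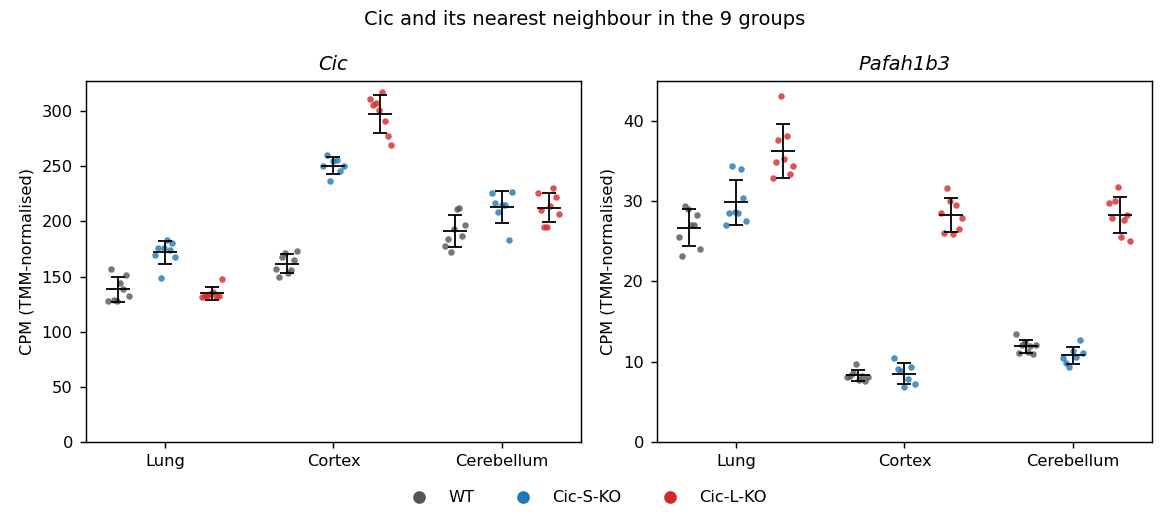
TMM-normalised CPM of Cic (left) and Pafah1b3 (right) in the 9 groups; each point is 1 library, the long bar the group mean and the short bars 1 SD, and both axes start at 0. Pafah1b3 in the Cic-L-KO cortex and cerebellum lies above all WT and Cic-S-KO libraries (25.9 to 31.7 and 25 to 31.8 CPM), whereas Cic in the cortex is high in both knockouts.

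The level of Pafah1b3 did not follow that of Cic across the groups. In the Cic-S-KO cortex the mean of Cic was 89 CPM above WT and that of Pafah1b3 0.219 CPM above it. In the Cic-L-KO cortex the same differences were 136 and 20 CPM, and in the Cic-L-KO cerebellum 20.8 and 16.3 CPM. In the Cic-L-KO lung Pafah1b3 was 9.53 CPM above WT while Cic did not pass the test. With the strand of the counted reads unknown, the part of Cic transcripts in these Pafah1b3 counts was not tested.

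The effect of Cic-L-KO on Pafah1b3 differed between the brain regions: the log2 change was larger in the cortex by 0.53 (SE 0.0943; adjusted p = 3.74e-05), in a fit over the 46 brain samples with a term for the difference. The Cic-L-KO means were 28.3 CPM in both regions, each scaled within its own tissue, and the WT means were 8.28 ± 0.646 (SD, n = 8) in the cortex and 11.9 ± 0.807 (SD, n = 8) in the cerebellum. The lung is not set against the brain in a test, because age and sequencing batch differ with the tissue and cannot be told apart from it.

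Over the 70 samples, taking each library's log2 CPM minus the WT mean of its tissue, the 3 genes most like Pafah1b3 among 14305 ranked were Wdr1 (Pearson r 0.913), Vasp (0.913) and Hsd17b12 (0.893). These coefficients describe libraries that share genotype groups and carry no test, and since the 3 genes were picked for likeness over the same libraries, their values below are a description. Wdr1, a cofilin partner in actin disassembly, lies on chromosome 5 and Hsd17b12, an enzyme of fatty acid elongation, on chromosome 2. Vasp, a promoter of actin filament growth, is on chromosome 7 as well but at chr7:19256929-19271817, beyond the neighbourhood. Their log2 differences from WT were 0.66, 0.98 and 0.60 in the Cic-L-KO cortex, 0.34, 0.43 and 0.63 in the Cic-L-KO cerebellum, and 0.08, 0.21 and 0.21 in the Cic-L-KO lung. In the Cic-S-KO cortex they were -0.11, 0.14 and -0.08.

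The next members on the 3′ side were either silent or changed in fewer places. Prr19, a factor of meiotic crossover formation that sits between Pafah1b3 and Tmem145, never exceeded 0.311 CPM in any of the 70 libraries. Its group totals ran from 9 counts in each knockout of the lung to 26 in the WT cortex, and it passed the low-count filter in no tissue. Fitted without that filter, its Cic-L-KO difference was -0.22 in the cortex (SE 0.606; adjusted p = 0.873) and 0.28 in the cerebellum (SE 0.713; adjusted p = 0.894). Cnfn encodes cornifelin, a protein of the cornified envelope of skin. It had 0 counts in all 16 WT and Cic-S-KO lung libraries (a count of 0 over the 8 WT libraries allows up to 0.0153 CPM) and 1 count in those of Cic-L-KO. In the brain its group means lay between 0.0173 CPM and 0.127 CPM, under the filter.

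Tmem145, which encodes a multi-pass membrane protein, was tested in the brain alone. In the cortex the WT libraries had 28.9, 33.7 and 36.9 CPM, those of Cic-S-KO 33.4, 36.1 and 49, and those of Cic-L-KO 40.3, 44 and 50. All 8 Cic-L-KO libraries were above all WT libraries, and 3 of 7 of Cic-S-KO were. The rise of Tmem145 was 0.41 on the log2 scale (SE 0.0705; adjusted p = 3.06e-05) in the Cic-L-KO cortex and 0.24 (SE 0.073; adjusted p = 0.0429) in that of Cic-S-KO. The Cic-S-KO call was lost in 4 of 8 alternative fits, with adjusted p up to 0.345. The knockouts did not differ from each other past the threshold (-0.17, 95% interval -0.31 to -0.02; adjusted p = 0.0773).

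In the cerebellum, where its WT mean was 95.9 ± 5.24 CPM (SD, n = 8), Tmem145 had 89.4, 95.7 and 102 CPM in WT, 82.6, 91.2 and 106 in Cic-S-KO, and 78.5, 104 and 121 in Cic-L-KO. The groups overlapped, and neither knockout passed the test (-0.0507 and 0.0838; adjusted p = 0.701 and 0.393). The Cic-L-KO effect on Tmem145 was larger in the cortex by 0.32 (SE 0.101; adjusted p = 0.0156). In the lung its highest value was 1.44 CPM, from 52 counts in the Cic-S-KO library that also held cortex marker RNA. Without a low-count filter the lung difference between Cic-S-KO and Cic-L-KO was 2.75 (adjusted p = 0.0397), and leaving that library out it was 1.52 (adjusted p = 0.335).

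Erf and Gsk3a are the nearest neighbours on the 5′ side. Erf encodes an ETS-family repressor that ERK phosphorylates, and Gsk3a encodes glycogen synthase kinase 3 alpha. In the cortex Erf had 56, 67.5 and 77.1 CPM in WT, 62.5, 70.9 and 85.1 in Cic-S-KO, and 52.5, 60.2 and 62.9 in Cic-L-KO. The groups overlapped, and 2 of 8 Cic-L-KO libraries were below every WT library. In Cic-L-KO Erf fell by 0.18 (SE 0.0579; adjusted p = 0.0126), and Cic-S-KO minus Cic-L-KO came to 0.29 (SE 0.0597; adjusted p = 0.000287). The Cic-S-KO difference from WT was 0.11 (adjusted p = 0.264).

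Gsk3a had 127, 130 and 145 CPM in the WT cortex, 128, 132 and 140 in Cic-S-KO and 117, 121 and 128 in Cic-L-KO, where 7 of 8 libraries were below every WT library. There it fell by 0.13 (SE 0.0319; adjusted p = 0.00124), and Cic-S-KO minus Cic-L-KO came to 0.13 (adjusted p = 0.00252). In the lung and the cerebellum neither Erf nor Gsk3a passed the test in either knockout, with differences from -0.0707 to 0.15. With offsets for GC content Gsk3a did pass, lower in the Cic-S-KO lung (adjusted p = 0.0338) and in the Cic-L-KO cerebellum (adjusted p = 0.006).

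Dedd2, a nuclear protein with a death effector domain, and the zinc-finger gene Zfp526 come next in distance. Dedd2 had 28.8, 33.4 and 34.5 CPM in the WT cerebellum, 26.8, 30 and 32.8 in Cic-S-KO and 24.4, 29.3 and 33.5 in Cic-L-KO, and 3 of 8 Cic-L-KO libraries lay below all of WT. The log2 fold change in the Cic-L-KO cerebellum was -0.18 (SE 0.0566; adjusted p = 0.0225), and Dedd2 passed in no other of its 6 comparisons with WT. The Cic-L-KO effect was higher in the cortex than in the cerebellum by 0.28 (adjusted p = 0.011). Zfp526 passed in none of its 6 comparisons with WT, and its differences ran from -0.12 to 0.0423. Unadjusted, its smallest p of these 6 was 0.11.

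Pou2f2 encodes OCT2, a transcription factor known for its role in B cells, and it is the member farthest from Cic. In the lung it had 6.17, 8.42 and 14 CPM in WT, 10.6, 14.2 and 18.2 in Cic-S-KO, and 6.15, 10.5 and 12.5 in Cic-L-KO. The groups overlapped, with 4 of 8 Cic-S-KO libraries above every WT library. It rose by 0.68 in Cic-S-KO (SE 0.16; adjusted p = 0.00491; 0.65 and 0.0108 without the library that held cortex RNA). The Cic-L-KO difference was 0.14 (adjusted p = 0.672). Cic-S-KO exceeded Cic-L-KO by 0.54 (adjusted p = 0.0255), which without that library became 0.51 (adjusted p = 0.0512).

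White blood cell markers, which were added to the planned tissue markers, moved in the same lung libraries. Of 7 B cell genes 5 were higher in Cic-S-KO, with a summed level of 32.1 to 59.2 CPM in WT and 67.6 to 90.2 CPM in Cic-S-KO, and of 6 neutrophil genes 6 were higher (28 to 115 CPM against 52.3 to 237 CPM); without replicate 5 these counts were 5 of 7 and 5 of 6. Of all genes, 15.7% passed in the Cic-S-KO lung in either direction. Cd79a, itself a B cell gene, lies 366 kb from Cic and rose by 0.777 in the Cic-S-KO lung (adjusted p = 0.00401). The B cell markers are therefore not fully separate from the wider locus. In the Cic-L-KO lung 0 of 7 and 0 of 6 passed edgeR's test (4.89% of all genes), with median differences of 0.21 and 0.53. The part of these cells in the rise of Pou2f2 was not tested. In bulk tissue, more or fewer cells of a type and more or less RNA per cell cannot be told apart.

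In the brain the differences of Pou2f2 had opposite signs in the cortex and the cerebellum. It had 11.5, 13.3 and 16.5 CPM in the WT cortex, 13.3, 16.9 and 19.2 in Cic-S-KO and 12.7, 14.2 and 15.7 in Cic-L-KO, and the differences from WT did not pass the test (0.26 and 0.0674; adjusted p = 0.0599 and 0.531). In the cerebellum it had 10.4, 11.1 and 14.7 CPM in WT, 9.22, 9.84 and 10.7 in Cic-S-KO and 7.55, 9.35 and 12.7 in Cic-L-KO, with 6 libraries of each knockout below every WT library. In Cic-L-KO it fell by 0.31 (SE 0.0898; adjusted p = 0.0125), and Cic-S-KO differed from WT by -0.27 (adjusted p = 0.0678). The effect was higher in the cortex than in the cerebellum for both knockouts, by 0.53 for Cic-S-KO (SE 0.128; adjusted p = 0.0132) and by 0.38 for Cic-L-KO (SE 0.124; adjusted p = 0.0203).

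**Figure D2:**
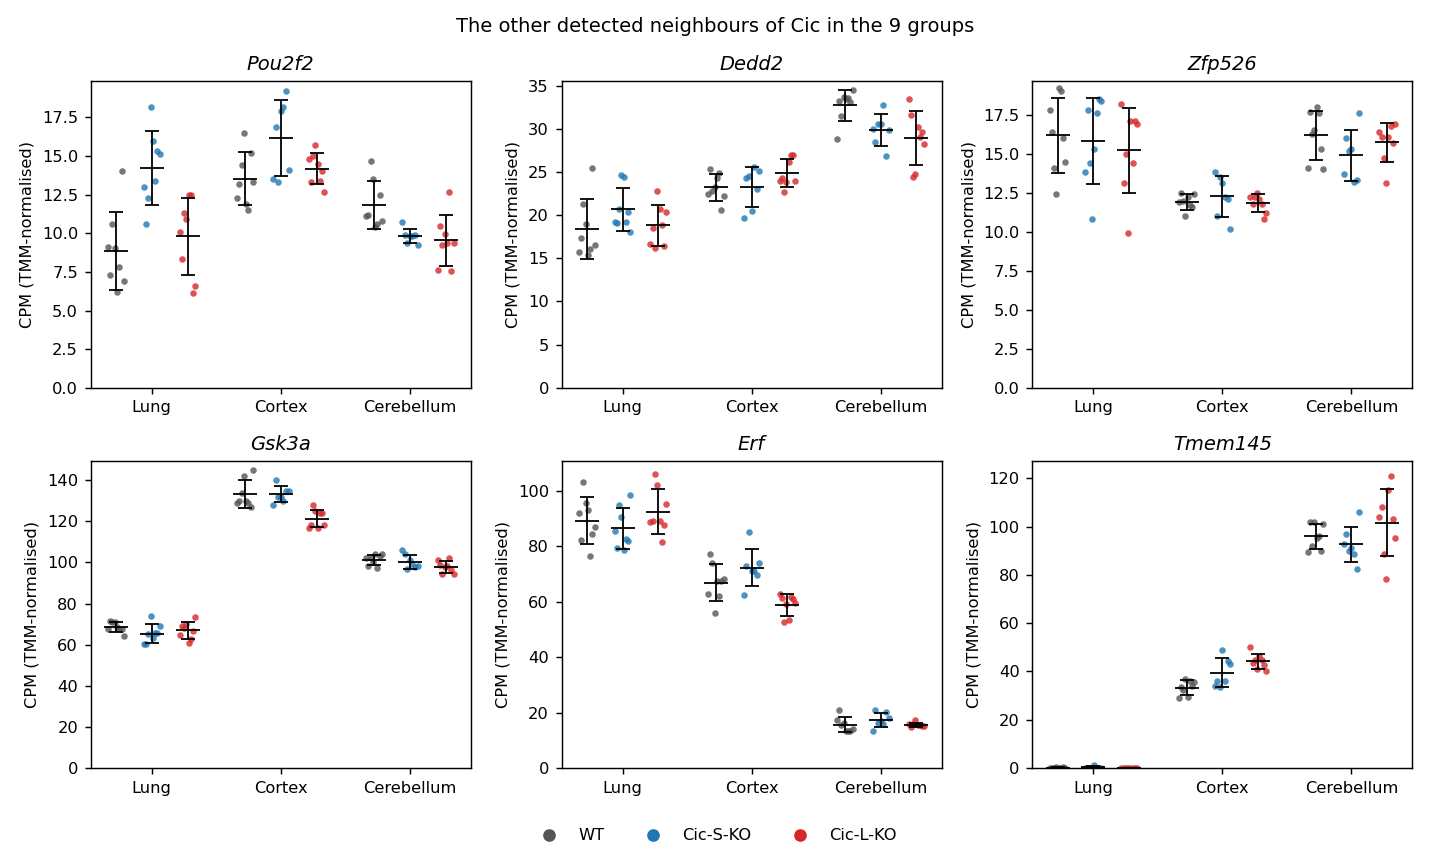
TMM-normalised CPM of Pou2f2, Dedd2, Zfp526, Gsk3a, Erf and Tmem145 in the 9 groups; each point is 1 library, with the group mean and 1 SD, and every axis starts at 0. Nearly all groups of a tissue overlap; Tmem145 in the Cic-L-KO cortex (40.3 to 50 CPM) lies above WT (28.9 to 36.9 CPM), and its lung values are near 0.

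Per kilobase of exon, the members' WT levels differed widely. In the WT cortex Gsk3a was the highest at 45.9 CPM per kb, followed by Erf (18.5), Cic (15.7) and Tmem145 (12.2), and Pafah1b3 (3.93), Dedd2 (3.88), Zfp526 (3.52) and Pou2f2 (1.64) were lower. In the cerebellum Gsk3a and Tmem145 were both at 35 CPM per kb, and Erf stood at 4.33. In the lung Erf (24.7) and Gsk3a (23.7) led, and Pafah1b3 (12.7) was close to Cic (13.5).

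Set in order of distance from Cic, the nearest 5 tested members in the Cic-L-KO cortex had differences whose size shrank with each step, which was not so in the other tissues. In the Cic-L-KO cortex the log2 differences from WT were 1.77 for Pafah1b3, 0.41 for Tmem145, -0.18 for Erf, -0.13 for Gsk3a, -0.0128 for Zfp526, 0.0952 for Dedd2 and 0.0674 for Pou2f2. In the Cic-L-KO cerebellum they were 1.25, 0.0838, 0.000151, -0.0539, -0.0413, -0.18 and -0.31 in the same order, so that the member farthest away had the second largest size. In the Cic-L-KO lung they were 0.44 for Pafah1b3, 0.0523 for Erf, -0.0368 for Gsk3a, -0.086 for Zfp526, 0.0362 for Dedd2 and 0.14 for Pou2f2. The signs were mixed: in the cortex both called genes on the 3′ side rose and both on the 5′ side fell.

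In Cic-S-KO the largest difference in each tissue was that of Pou2f2, the farthest member: 0.68 in the lung, 0.26 in the cortex and -0.27 in the cerebellum. Pafah1b3, the nearest, had 0.16, 0.0393 and -0.15 there. These comparisons share the WT libraries of their tissue.

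**Figure D3:**
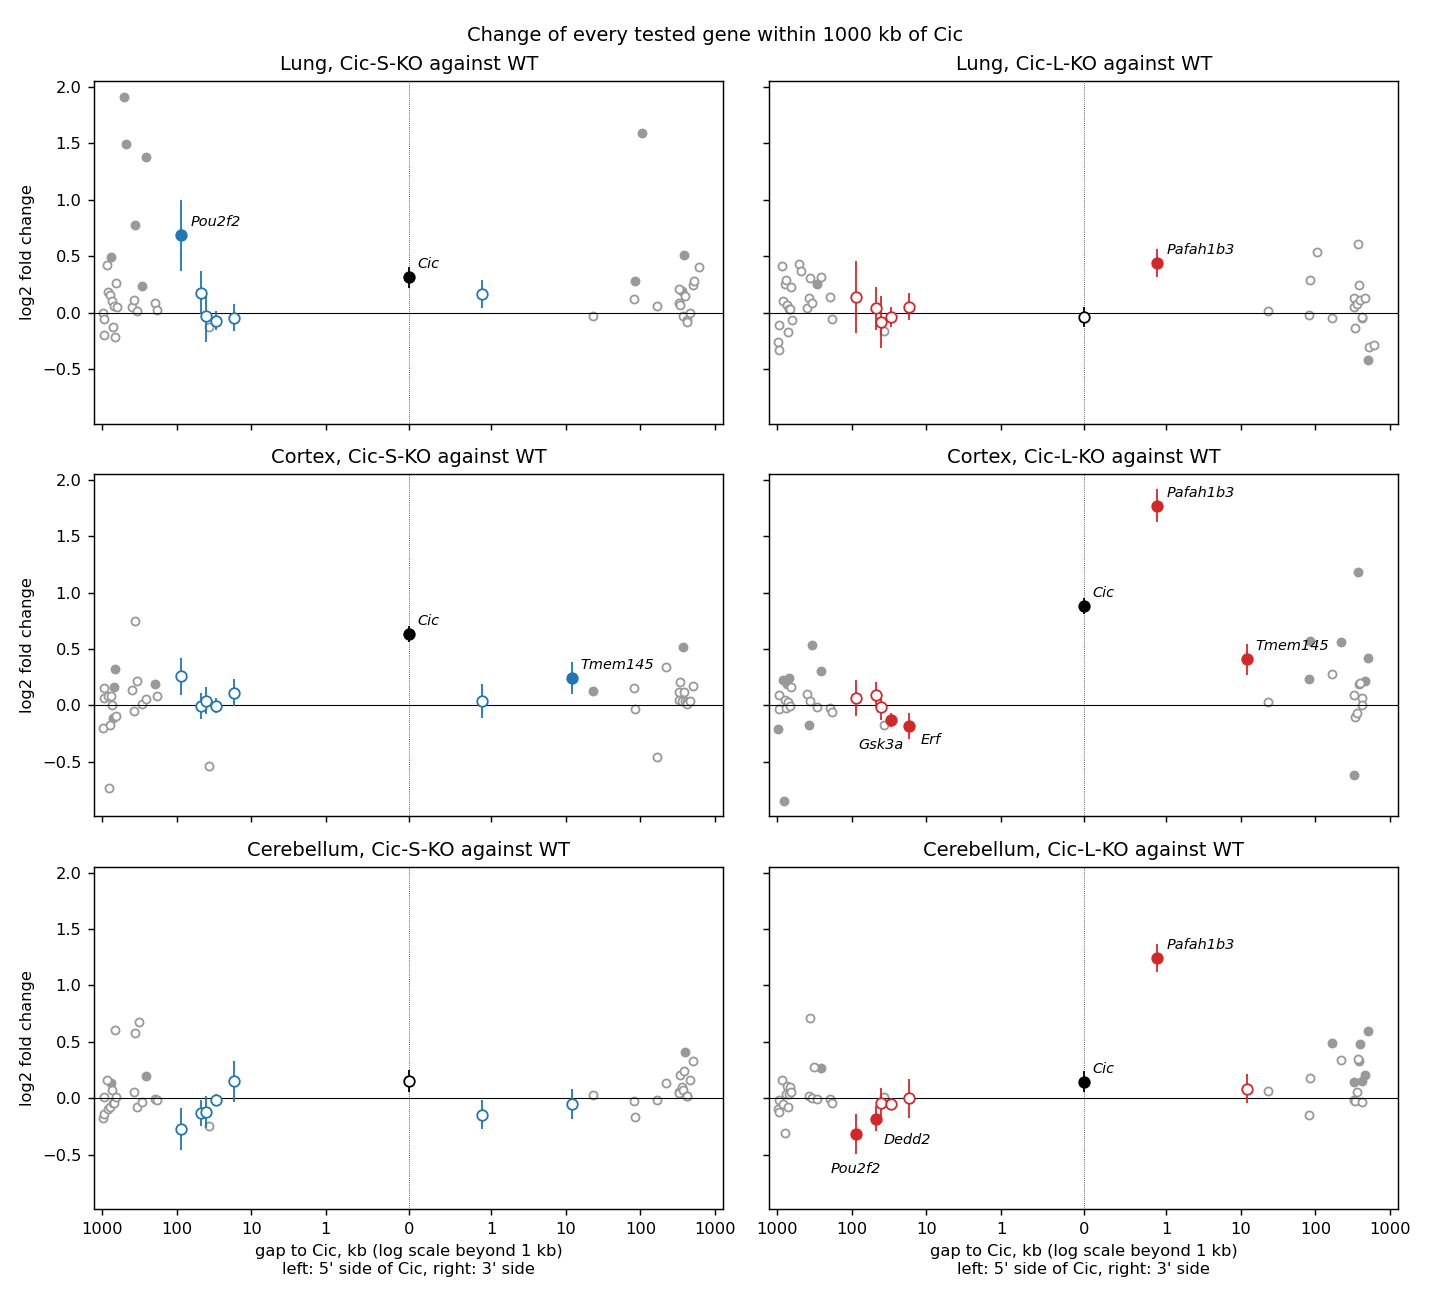
Log2 fold change against WT (vertical) of Cic (black), the members (coloured, with 95% intervals) and the other tested genes within 1000 kb (grey), against the gap to Cic in kb on a log scale beyond 1 kb, 5′ side to the left. Filled points passed the adjusted p threshold of 0.05; Pafah1b3 stands above the rest in the Cic-L-KO cortex (1.77) and cerebellum (1.25), with nothing of that size between it and 100 kb.

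Counts of members past the threshold were read against all genes tested in the same comparison. In the lung 1 of 6 members passed in Cic-S-KO (15.7% of all genes), 1 of 6 in Cic-L-KO (4.89% of all genes) and 2 of 6 between the knockouts (12.2%), or 1 of 6 without Cic-S-KO replicate 5. In the cortex 1 of 7 passed in Cic-S-KO (6.53%), 4 of 7 in Cic-L-KO (43.2%), where Pafah1b3 and Tmem145 were higher (21.4% of all genes) and Gsk3a and Erf lower (21.9%), and 3 of 7 between the knockouts (33.9%). In the cerebellum 0 of 7 passed in Cic-S-KO by edgeR (8.23%), 3 of 7 had an unadjusted p under 0.05 (all lower), and DESeq2 called 1. For Cic-L-KO in the cerebellum 3 of 7 passed (21.5%), Pafah1b3 higher (10.9% of all genes) and Pou2f2 and Dedd2 lower (10.6%), and between the knockouts 1 of 7 passed (12.4%). The difference between the brain regions passed in 1 of 7 for Cic-S-KO (4.5%) and in 4 of 7 for Cic-L-KO (23%). With 6 or 7 members, a single gene moves such a share by much, and the median size over members was under that of all genes in 5 of the 6 comparisons with WT (0.132 against 0.183 in the Cic-L-KO cortex, for example).

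Over wider windows the share of called genes did not rise steadily toward Cic. In the Cic-L-KO cortex 6 of 11 tested genes within 100 kb passed (54.5%), 8 of 20 from 100 to 500 kb (40%), 6 of 13 from 500 to 1000 kb (46.2%) and 43.3% of genes on other chromosomes. In the Cic-L-KO cerebellum 3 of 11 within 100 kb (27.3%) compared with 7 of 20 (35%), 1 of 13 (7.69%) and 21.7%. In the Cic-L-KO lung Pafah1b3 was the 1 called gene of 10 within 100 kb, against 4.87% on other chromosomes. In Cic-S-KO 2 of 10 genes within 100 kb passed in the lung (15.6% on other chromosomes), 2 of 11 in the cortex (6.66%) and 0 of 11 in the cerebellum by edgeR (8.42%). The 2 in the lung were Pou2f2 and Lipe, and without lung Cic-S-KO replicate 5 Lipe no longer passed (adjusted p = 0.0743), which left 1 of 10. From 100 to 500 kb, 7 of 21 passed in the Cic-S-KO lung (33.3%), 2 of 20 in the cortex (10%) and 2 of 20 in the cerebellum. From 500 to 1000 kb the counts were 2 of 17 (11.8%), 3 of 13 (23.1%) and 1 of 13 (7.69%), and the lung count was 4 of 17 (23.5%) without that library.

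**Figure D4:**
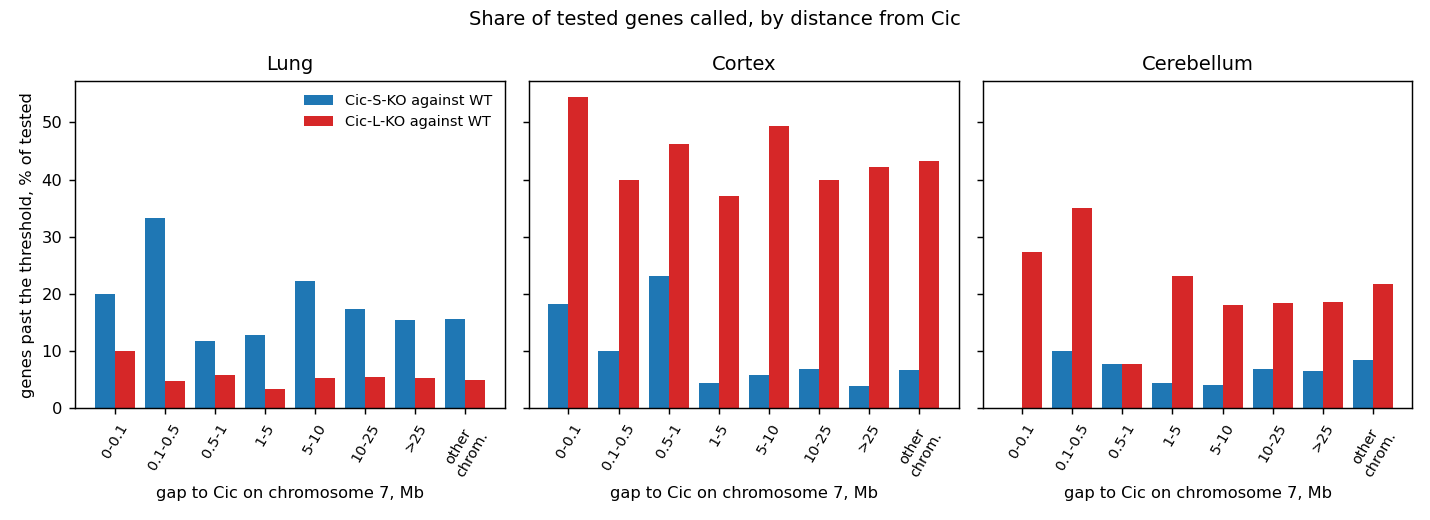
Percent of tested genes past the adjusted p threshold of 0.05 (vertical, from 0) by gap to Cic on chromosome 7 in Mb, and on other chromosomes, for Cic-S-KO (blue) and Cic-L-KO (red) against WT, with Cic left out. The nearest class holds 10 or 11 genes, so 1 gene is a large step there; in the cortex it reaches 54.5% for Cic-L-KO against 43.3% on other chromosomes.

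Within 1000 kb there were 101 other annotated genes, of which 45 were tested in at least 1 tissue. By comparison, 23.8% of the 42 tested in the lung passed in Cic-S-KO (15.7% of all genes) and 4.76% in Cic-L-KO (4.89%). Without lung Cic-S-KO replicate 5 the Cic-S-KO share was 26.2% (14.6% of all genes). Of the 37 tested in the cortex, 16.2% passed in Cic-S-KO (6.53% of all genes) and 43.2% in Cic-L-KO (43.2%). In the cerebellum the share was 8.11% for Cic-S-KO, beside 8.23% of all genes, while Cic-L-KO had 21.6%, beside 21.5%. These shares carry no test. The antisense RNA 9130221H12Rik passed in no comparison with WT. Of the 6 genes annotated between members, 4 were not tested anywhere.

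Among the other genes within 1000 kb, those passing in 2 or more comparisons included B9d2, Cyp2s1, Cadm4, Xrcc1, Rabac1, Lipe, Tmem91, Tgfb1 and Axl. The share of all genes passing that often was not counted. Tmem91, 375 kb away, rose by 1.182 in the Cic-L-KO cortex (adjusted p = 3.14e-10), and B9d2, 387 kb away, by 0.194 there and by 0.328 in the Cic-L-KO cerebellum. In the Cic-L-KO cortex libraries 3 of 5 cortex markers were lower (21.9% of all genes), with a summed level of 1420 to 1660 CPM against 1870 to 2070 CPM in WT. Of the cerebellum markers, 2 of the 4 tested in the cortex were lower too. All 6 summed to 135 to 178 CPM there, against 205 to 252 CPM in WT. The part of either marker set in the cortex results was not tested.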

How the data were processed

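Poly(A)-selected RNA of 70 samples was measured as 1 table of counts per gene. Per the submitters' processing notes, the authors used STAR 2.7 and the build GRCm38.p6. The values are deposited as whole-number counts, not normalized; the counting program, strand setting and annotation are not given in the sources used here. Of 50789 identifiers, 50725 matched GENCODE M21 after the version was ignored (49135 with it). Members and gene lists were chosen with earlier results of these data known.

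Within each tissue, genes passing edgeR's filterByExpr (16695 in the lung, 16974 in the cortex, 16643 in the cerebellum) were fitted over the 3 genotypes with edgeR 4.0.16 in R 4.3.3 (TMM factors, robust quasi-likelihood F test). Adjusted p-values are Benjamini-Hochberg over all genes tested, with a threshold of 0.05; intervals are 1.96 SE either way. The difference between brain regions came from 1 fit over 46 samples (18032 genes). The fits were tested on simulated data. Distance is the gap between annotated gene bodies. Named were Cic and all members, other genes within 1000 kb called in 2 or more comparisons (at most 10) or lying between members, and the 3 genes most like the member called most often. Library totals were 17798655 to 35523037 counts, so a gene with 0 counts is limited to 3 counts, for counting error alone. No replicate pair was identical (0 of 84, 77 and 77 pairs). Alternatives were DESeq2 1.42.0, RLE scaling, no low-count filter, a Y-linked covariate, TMM factors without genes within 10 Mb of Cic, GC offsets, and a replicate block with and without GC offsets; leaving out 1 lung library was added after seeing the data.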

Additional observations from a re-analysis of the deposited data

Results flagged for a closer look

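The effect of a knockout differed between cortex and cerebellum, by a test of the difference itself, for these genes. For Cic-L-KO the log2 effect in the cortex exceeded that in the cerebellum by 0.73 for Cic (adjusted p = 7.95e-13), 0.53 for Pafah1b3 (adjusted p = 3.74e-05), 0.38 for Pou2f2 (adjusted p = 0.0203), 0.32 for Tmem145 (adjusted p = 0.0156) and 0.28 for Dedd2 (adjusted p = 0.011). For Cic-S-KO it did so by 0.53 for Pou2f2 (adjusted p = 0.0132) and 0.48 for Cic (adjusted p = 3.23e-05).

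A single library stood far from the rest of its group in 6 of 69 groups of values, where chance alone gives about 1 in 20 (3.45). Cic-S-KO replicate 1 of the cerebellum had 10.7 CPM of Pou2f2, against 9.22 to 9.87 in the others. Cic-L-KO replicate 4 of the cerebellum had 17.3 CPM of Erf, against 14.9 to 15.9. WT replicate 4 of the cortex had 9.69 CPM of Pafah1b3, against 7.64 to 8.59, and still lay below every Cic-L-KO library. Cic stood apart in 3 groups: 149 CPM in lung Cic-S-KO replicate 3 (others 168 to 183), 148 CPM in lung Cic-L-KO replicate 8 (others 131 to 136), and 183 CPM in cerebellum Cic-S-KO replicate 6 (others 209 to 227).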

How the results depend on the processing

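Of 680 single-gene values under 8 alternatives, 660 kept their side of the threshold and, where called, their direction; 7 lost a call, 13 gained one and 0 reversed. The rise of Pafah1b3 in Cic-L-KO passed in 8 of 8, at 1.71 to 1.78 in the cortex, 1.19 to 1.25 in the cerebellum and 0.38 to 0.44 in the lung. Under GC offsets 2 members were called in the Cic-S-KO lung (1 before), 0 in the Cic-S-KO cortex (1 before) and 1 in the Cic-S-KO cerebellum (0 before), and all genes called in the Cic-S-KO cortex fell from 1108 to 451. DESeq2 called 2 members in the Cic-S-KO cortex and 1 in the Cic-S-KO cerebellum. Without a low-count filter 732 genes were called in the Cic-S-KO cortex and 446 (812 before) in the brain difference for Cic-S-KO. The causes were not tested.

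Same-numbered samples of different genotypes correlated over 0.1 in 20 of 24 pairs in the lung, 14 of 22 in the cortex and 12 of 22 in the cerebellum. Between cortex and cerebellum of 1 genotype and number it was 19 of 23 (mean r 0.185, lowest 0.0216), and the library numbers of both Cic-S-KO brain groups skip 2. Some pairs stayed under 0.1 in each set, so the numbers were not taken as pairing; the block left the members called in the brain differences at 1 and 4. Within a tissue the block used the replicate number. Most Cic-S-KO brain samples therefore shared a block with WT and Cic-L-KO samples of another library number. A block by library number was not fitted. With the replicate block 2 members were called in the Cic-S-KO lung and 0 in the Cic-S-KO cortex. All-gene counts with the block were 1285 in the Cic-L-KO lung (817 before), 627 in the Cic-S-KO cortex and 591 in the Cic-S-KO cerebellum (1370 before). With the block and GC offsets together, 2 members were called in the Cic-S-KO lung and 0 in the Cic-S-KO cortex, beside 253 and 632 genes over all in the Cic-S-KO cortex and cerebellum.

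Asking for an absolute log2 difference of at least 0.5 lowered the genes called within 1000 kb (Cic left out) in Cic-S-KO from 11 to 7 in the lung, from 7 to 1 in the cortex and from 3 to 0 in the cerebellum, and in Cic-L-KO from 3 to 0, from 20 to 7 and from 11 to 2; this alternative asks for more by construction. The shares left in lung, cortex and cerebellum were 14.6%, 2.27% and 0% in Cic-S-KO (5.74%, 0.875% and 1.1% on other chromosomes) and 0%, 15.9% and 4.55% in Cic-L-KO (1.2%, 11.2% and 3.04%). Single-gene calls that changed are given by adjusted p. Tmem145 lost its call in the Cic-S-KO cortex (0.084 without filter, 0.254 with GC offsets, 0.0744 with the block, 0.345 with both). Pou2f2 gained a call in the Cic-S-KO cortex (0.034 by DESeq2, 0.0436 without filter) and cerebellum (0.041 by DESeq2, 0.0443 with GC offsets). Between the lung knockouts Pou2f2 lost its call (0.0621 without filter). Pafah1b3 gained one in the Cic-S-KO lung (0.0295 with the block). Gsk3a gained one in the Cic-S-KO lung (0.0338 with GC offsets, 0.0412 with block and GC offsets) and the Cic-L-KO cerebellum (0.006 and 0.0201). Tmem145 gained one between the cortex knockouts (0.045 with block and GC offsets). In the Cic-S-KO cerebellum Cic gained one (0.0388 by DESeq2, 0.0447 without filter, 0.0449 with the Y-linked covariate). In the Cic-L-KO cerebellum Cic lost its call (0.229 with GC offsets, 0.307 with the block as well). Leaving out lung Cic-S-KO replicate 5 left 1 of 2 members called between the lung knockouts. Prr19 and Cnfn are limited by depth.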
